A study of Mus musculus with 9 samples.

Results

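Steroid 5-alpha reductases were examined in the developing mouse urogenital sinus through every probe set that the platform annotation pairs with Srd5a1, Srd5a2 or Srd5a3 alone. Of these 3 symbols, 1 was matched: Srd5a3 was read by 5 of the 45101 probe sets on the array, and Srd5a1 and Srd5a2 are not analysed here. The results below therefore describe Srd5a3 only, 1 of 18193 genes with a probe set of their own.

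The 9 Affymetrix arrays carried RNA from the urogenital sinus, the embryonic outlet of the bladder from which the prostate and part of the vagina arise. All mice were C57BL/6. Their mothers were exposed from embryonic day 13 to 16. One group received BPA (bisphenol A, a weakly estrogenic building block of plastics) at a daily dose of 20 µg/kg, another DES (diethylstilbestrol, a potent estrogen made by synthesis) at a daily dose of 0.2 µg/kg, and the controls were exposed to vehicle. The labels' protocols name stripped corn oil as the solvent of both agents. Each agent was sampled once at each of 3 ages, E17 and E18 (embryonic days 17 and 18) and P0 (birth), with 1 array per sample. The labels say that male and female tracts were dissected, but not the sex of the fetuses on an array. Nor do they say how many fetuses or litters an array holds. The spread that the p-values measure is that of these arrays alone, once age and agent are fitted. An agent difference that changes with age, spread between samples and technical spread all enter it and cannot be told apart.

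The reductases add hydrogen across a double bond of a steroid or of a related lipid. Srd5a1 and Srd5a2 are best known for turning testosterone into dihydrotestosterone, the androgen that drives prostate budding from the urogenital sinus. Srd5a3 is best known as a polyprenol reductase of the endoplasmic reticulum: it makes dolichol, the lipid on which the sugar chain of N-linked glycoproteins is built. In humans, loss of SRD5A3 causes a congenital disorder of glycosylation.

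The promoter of Srd5a3 is shown because it is the sequence in which motifs of estrogen and androgen receptors or of the glycoprotein stress response could be looked for. The 250 bases upstream of the RefSeq start lie on the plus strand of GRCm38.p6 at chr5:76140023-76140272. Capitals mark an E-box (CACGTG) and GC boxes (GGGCGG, on either strand).
Srd5a3 promoter: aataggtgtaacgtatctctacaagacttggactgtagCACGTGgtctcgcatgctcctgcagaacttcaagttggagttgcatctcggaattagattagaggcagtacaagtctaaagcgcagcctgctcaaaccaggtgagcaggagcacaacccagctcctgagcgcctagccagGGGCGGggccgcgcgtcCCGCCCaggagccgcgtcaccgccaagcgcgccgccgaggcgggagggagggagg
The E-box began 212 bases upstream of the start, and 6.02% of 32851 mouse promoters of this length hold at least 1 on either strand. The 2 GC boxes began 72 and 55 bases upstream, and 32.7% of promoters hold 1 or more. G and C made up 60.8% of the Srd5a3 sequence, against a median of 52.4% over all promoters. On both strands, these letters were not found in the window: TATAAA (in 12.4% of promoters), CCAAT (33.8%), the estrogen response element, which is GGTCA and TGACC with 3 bases of any kind between them (0.0639%), the androgen response element, AGAACA and TGTTCT with 3 bases between them (0.00913%), and the endoplasmic reticulum stress element, CCAAT and CCACG with 9 bases between them (0.113%). The CCAAT letters are also the start of the stress element, so those motifs overlap.

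The deposited intensities were not on a common scale, their trimmed mean being 157 on the BPA P0 array and 235 to 277 on the other 8, so signals were quantile-normalised. Of 11 genes that mark the urogenital sinus and prostate field, Shh, an epithelial signal of this tissue, read 1136 to 1949 and the posterior homeobox gene Hoxd13 1080 to 1596, whereas Hoxb13 (24.5 to 61.2) and Fgf10 (32.9 to 69.1) were dim. For P0 against E18, 8 of the 10 tested were lower, where 48.2% of all genes were higher. At an unadjusted limma p under 0.05, 4 were lower and 1 higher, against 13.5% of all tested probe sets. The BPA P0 array stood apart: the summed signal of 13 gonad and adrenal markers was 4474.5 there, against 701.8 to 812.7 on the other 8 arrays. On that array Amh, a Sertoli cell hormone, read 296, against 3.33 to 8.10 on the others. Not every marker of the list rose there: Star read 100.8, against 37.6 to 121.5 on the others, and Sox9 184.3, against 140.7 to 266.9. Summed signals of 8 epidermis markers were 5712, 11065 and 22567 on the BPA arrays at E17, E18 and P0, 4082 to 5166 on the DES arrays and 3326 to 3769 on the control arrays. The markers did not all rise with age on the BPA arrays. There Krt10 read 266.7, 1253 and 6327, but Sprr1a 3804, 3482 and 3847 and Ivl 453.9, 385.8 and 409.6. Control arrays read 2089 to 2402 for Sprr1a and 152.8 to 202.1 for Ivl. The 9 fibroblast markers summed to between 69279 and 78931 on all arrays. For P0 against E18 all 9 were higher (median log2 difference 0.07), where 48.2% of all genes were. Of these, 3 had an unadjusted limma p under 0.05, against 13.5% of all tested probe sets. For P0 against E17, 7 were higher and 2 lower (0.07). There 4 were higher at that p, against 17.3% of all. Other marker lists moved with the comparisons. Of all tested genes, 52.3% were higher after BPA, 56.6% after DES and 50.3% at P0 than at E17. Smooth muscle was higher after BPA in 8 of 8 genes (median log2 difference 0.66) and after DES in 8 of 8 (0.28), and lower at P0 than at E17 in 8 of 8 (-0.46). At an unadjusted limma p under 0.05, 6 were higher after BPA and 1 after DES, against 7.84% and 5.63% of all tested probe sets. The DES array had a lower sum than the control array at E17 (30799 and 35590). It had a higher sum at E18 (31343 and 21674) and P0 (27914 and 23352). Urothelium was higher in 7 of 7 after BPA (0.53) and after DES (0.28). Skeletal muscle was lower in 7 of 9 after BPA (-0.59) and higher in 7 of 9 at P0 than at E17 (1.00). In limma 3 passed for P0 against E17, against 0.0926% of all tested probe sets. The 4 liver markers summed to 290.9 to 2356 on the BPA arrays, 202.4 to 1079 on the DES arrays and 85.7 to 2052 on the control arrays. The part of these tissues in the Srd5a3 values was not tested. The precision is set by the number of arrays. In whole tissue, fewer cells of a type and less RNA per cell cannot be told apart.

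Of the 5 Srd5a3 probe sets, 3 varied little over the arrays and the other two varied more. In Affymetrix naming, the ending _s_at marks probes shared by related transcripts and _x_at marks probes that may cross-hybridise with other sequences. The probe sets 1423573_at and 1423574_s_at were designed from the same deposited clone sequence, 1456691_s_at and 1439241_x_at from another, and 1445180_at from one of its own.

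For 1423573_at, normalised signal at E17, E18 and P0 was 216, 250.3 and 252 on the BPA arrays, 239, 174 and 239 on the DES arrays, and 185, 218 and 265 on the control arrays. The lowest array was DES E18 and the highest control P0, a 1.53-fold span in which every agent overlapped with every other.

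For 1423574_s_at, the signal at E17, E18 and P0 was 244, 288 and 375 on the BPA arrays, 278, 268 and 295 on the DES arrays, and 294, 287 and 354 on the control arrays. All 3 P0 arrays lay above all 6 prenatal arrays, by the narrowest margin for DES P0 (295) over control E17 (294).

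For 1456691_s_at, the signal at E17, E18 and P0 was 278, 317 and 364 on the BPA arrays, 320.3, 299 and 280.1 on the DES arrays, and 303, 259 and 366 on the control arrays. BPA P0 and control P0 were the highest of the 9, while DES P0 was the third lowest. These 9 arrays spanned 1.41-fold.

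For 1439241_x_at, the signal at E17, E18 and P0 was 92.0, 121 and 209 on the BPA arrays, 175, 170.2 and 264 on the DES arrays, and 211, 96.6 and 297 on the control arrays. Within each agent P0 was the highest age. The span was 3.22-fold, with BPA E17 and control E18 at the bottom.

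For 1445180_at, the signal at E17, E18 and P0 was 40.6, 41.8 and 15.7 on the BPA arrays, 52.3, 7.72 and 16.7 on the DES arrays, and 36.6, 60.8 and 31.1 on the control arrays. Its mean log2 value of 5.13 lay below the limit for testing, 5.54 (a signal of 41.2), whereas the lowest of the 4 probe sets that passed lay at 7.45. The DES E18 value of 7.72 was close to the pseudocount of 5.46.

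**Figure D1:**
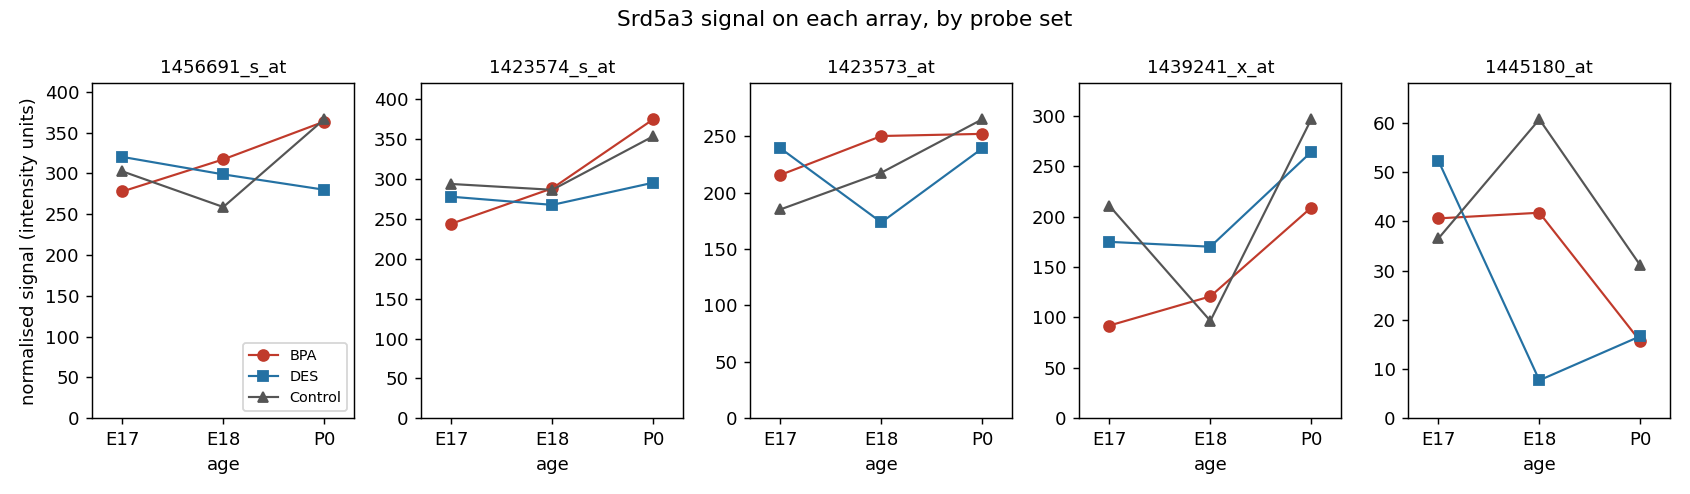
Normalised signal (vertical axis, intensity units, starting at 0 and scaled separately in each panel) of the 5 Srd5a3 probe sets against age (E17, E18, P0), with 1 array per point and a line per agent. In 1423574_s_at the 3 P0 arrays (295 to 375) lie above the prenatal arrays, whereas 1445180_at is dim throughout (7.72 to 60.8).

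Over the 9 arrays the probe sets of this 1 gene were related unevenly, as Pearson's r of log2 signal on shared arrays shows descriptively. The value was 0.77 between 1423574_s_at and 1456691_s_at, 0.56 between 1423573_at and 1423574_s_at, and 0.50 between 1423573_at and 1456691_s_at. The probe set 1439241_x_at had r of 0.65 with 1423574_s_at and 0.23 with 1423573_at. The dim 1445180_at had r of -0.48 to 0.27 with the other 4. Once age and agent were accounted for, the residual SD of log2 signal was 0.14 for 1423574_s_at, 0.19 for 1456691_s_at and 0.21 for 1423573_at, near the median of all tested probe sets (0.18), and 0.40 for 1439241_x_at, with 91.1% of them below it.

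Only for P0 against the prenatal ages did the 4 tested Srd5a3 probe sets share a direction, and none passed after adjustment. All 4 tested probe sets had a positive log2 difference of P0 over E18, between 0.20 and 0.98, and within agents the P0 array was above the E18 array in 11 of 12 pairs of probe set and agent. The exception was 1456691_s_at after DES (280.1 at P0, 299 at E18). The 4 probe sets read 1 gene on the same arrays, so here and below the 12 pairs are not independent and only describe. In limma, 0 of 4 passed at an adjusted p of 0.05, as did 0% of the 26999 probe sets tested, and 1 of 4 had an unadjusted p under 0.05, against 13.5% of all.

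That 1 was 1439241_x_at, which averaged 257 ± 44.3 at P0 and 129 ± 37.5 at E18 (SD, n = 3 arrays each), with no overlap. Its log2 difference was 0.98 ± 0.24 (SE), a 1.98-fold difference, with a 95% interval of 0.44 to 1.52 (limma unadjusted p = 0.00244, adjusted p = 0.25). The control E18 array carried part of it: without that array the difference was 0.63 ± 0.20 (limma adjusted p = 0.661). Without the BPA P0 array, which held the gonad signal, it was 0.94 ± 0.30 (limma adjusted p = 0.444).

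The probe set 1423574_s_at averaged 341 ± 41.2 at P0 and 281 ± 11.5 at E18 (SD, n = 3 each), again without overlap. The log2 difference was 0.27 ± 0.13 (SE; 95% interval -0.02 to 0.56; limma adjusted p = 0.397), and 0.17 ± 0.14 without the BPA P0 array (limma adjusted p = 0.672). Groups that did not overlap between P0 and E18 were found in 14.3% of all tested probe sets. The other pair of probe sets had smaller differences, 0.25 ± 0.16 for 1423573_at and 0.20 ± 0.15 for 1456691_s_at. All 4 differences stayed above 0 with the intensities as deposited, at 0.02 to 0.82, where the median of all probe sets moved to -0.17.

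Between P0 and E17 the 4 differences were again positive, at 0.15 to 0.73, with P0 higher in 10 of 12 pairs. With deposited intensities, where the median of all probe sets was -0.29, 1423573_at (-0.06) and 1456691_s_at (-0.15) turned below 0, though each stayed above that median. In limma 0 of 4 passed, while 0.0926% of all tested probe sets did, and 2 of 4 had an unadjusted p under 0.05, against 17.3% of all.

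The probe set 1439241_x_at averaged 257 ± 44.3 at P0 and 159 ± 60.9 at E17 (SD, n = 3 each), a log2 difference of 0.73 ± 0.24 (SE; 95% interval 0.19 to 1.27; limma adjusted p = 0.19). The ages overlapped by 1 array, the lowest P0 array (BPA, 209) lying just under the highest E17 array (control, 211). Without the BPA E17 array, its lowest, the difference was 0.48 ± 0.25 (limma adjusted p = 0.524). The probe set 1423574_s_at averaged 341 ± 41.2 at P0 and 272 ± 25.4 at E17, a log2 difference of 0.32 ± 0.13 (SE; 95% interval 0.03 to 0.61; limma adjusted p = 0.248), without overlap, as in 19.9% of all tested probe sets.

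The dim 1445180_at ran the other way. It averaged 21.1 ± 8.64 at P0 and 43.2 ± 8.17 at E17 (SD, n = 3 each), a log2 difference of -0.90 ± 0.49 (SE) in the fit without a filter (limma adjusted p = 0.479). For P0 against E18 it had -0.42 ± 0.49 in the same fit (limma adjusted p = 0.799).

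Between E18 and E17, Srd5a3 showed no common direction. Its 4 log2 differences ran from -0.25 to 0.05, with E18 higher in 5 of 12 pairs. In limma 0 of 4 passed, as did 0% of all probe sets, and none of the 4 had an unadjusted p under 0.05, against 2.75% of all. The E18 and E17 arrays overlapped in all 4, whereas 9.43% of all tested probe sets had no overlap. The 95% intervals of the 4 together reached from -0.79 to 0.35.

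The comparison of BPA with vehicle is the one the series is named for. Srd5a3 signals after BPA and in controls overlapped in all 4 tested probe sets, with the BPA array higher than the control array of its age in 6 of 12 pairs. Of the estimates, 2 were above 0 and 2 below. In limma 0 of 4 passed, as did 0% of all probe sets, and 0 of 4 had an unadjusted p under 0.05, against 7.84% of all.

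For 1423573_at the mean was 239 ± 20.5 on the BPA arrays and 223 ± 40.2 on the control arrays (SD, n = 3 each), a log2 difference of 0.11 with a 95% interval of -0.24 to 0.47. For 1423574_s_at it was 302 ± 66.6 after BPA and 311 ± 36.8 in controls, a difference of -0.06 with an interval of -0.34 to 0.23. For 1456691_s_at it was 320 ± 42.8 after BPA and 309 ± 54.0 in controls, a difference of 0.05 with an interval of -0.27 to 0.38. Each of these 3 intervals leaves room for a modest change in either direction, and none reaches 0.5 log2 units.

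The widest BPA estimate was that of 1439241_x_at, at 141 ± 60.9 on the BPA arrays and 201 ± 100.3 on the control arrays (SD, n = 3 each). The log2 difference was -0.45 ± 0.24 (SE; 95% interval -0.99 to 0.10; limma adjusted p = 0.708). Its E17 arrays differed by -1.15, its E18 arrays by 0.31 and its P0 arrays by -0.50, so its sign was not shared. It was -0.19 without the BPA E17 array, -0.17 without the control E17 array and -0.80 without the control E18 array. Without the BPA P0 array, with its gonad signal, the 4 differences were 0.18, -0.15 (1423574_s_at), -0.003 (1456691_s_at) and -0.49 (1439241_x_at). With both BPA arrays of E18 and P0 left out, those with the most epidermal signal, 1439241_x_at had -0.96 and 1456691_s_at -0.18.

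**Figure D2:**
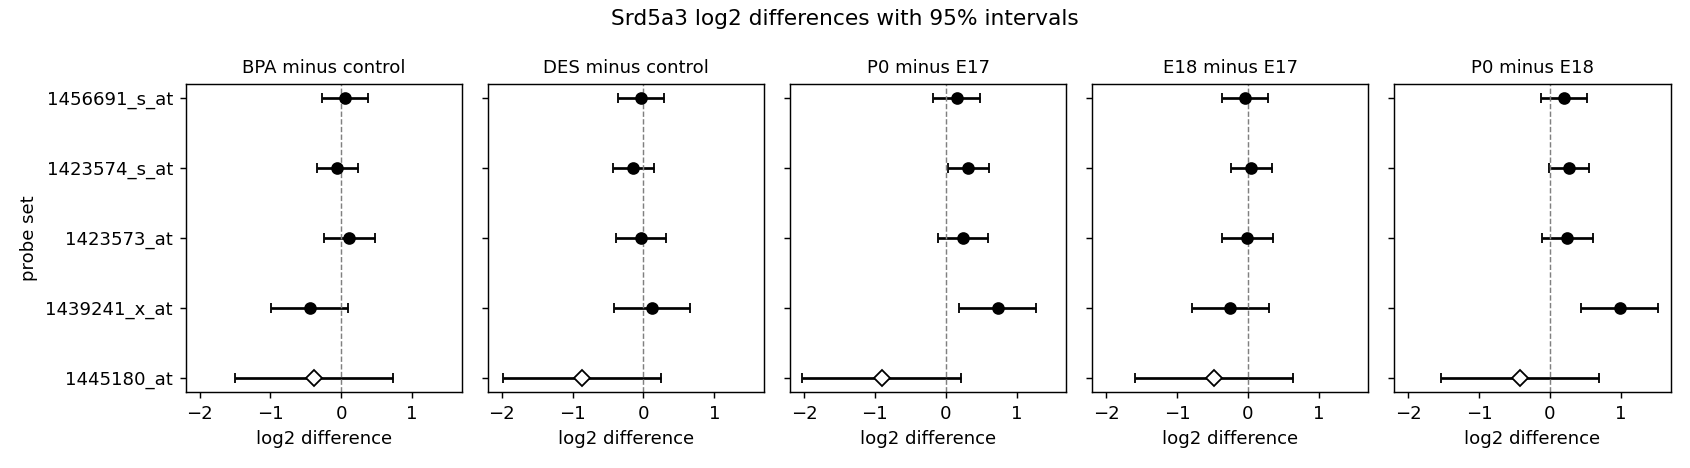
Log2 differences of the 5 Srd5a3 probe sets (rows) in each comparison (panels), with bars for 95% intervals from the limma fit to 9 arrays and a dashed line at 0. Filled circles are the 4 tested probe sets and open diamonds 1445180_at, fitted without a filter. The P0 minus E18 estimates of the filled circles all lie right of 0 (0.20 to 0.98), while the BPA and DES intervals all cross it.

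DES sets a stronger estrogen beside BPA, at a dose that differs from that of BPA, and both were compared with the same control arrays. After DES the 4 Srd5a3 differences were -0.14 to 0.12, with the DES array higher than the control array of its age in 4 of 12 pairs. In limma 0 of 4 passed, as did 0% of all probe sets, and 0 of 4 had an unadjusted p under 0.05, against 5.63% of all.

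The most even of them was 1423574_s_at, which averaged 280.3 ± 14.0 on the DES arrays and 311 ± 36.8 on the control arrays (SD, n = 3 each) and was lower after DES at each of the 3 ages. The log2 difference was -0.14 ± 0.13 (SE; 95% interval -0.43 to 0.14; limma adjusted p = 0.887). For 1423573_at the mean was 217 ± 37.9 after DES and 223 ± 40.2 in controls, with differences of 0.36 at E17, -0.32 at E18 and -0.14 at P0. For 1456691_s_at it was 299.8 ± 20.1 after DES and 309 ± 54.0 in controls, and for 1439241_x_at 203 ± 52.9 after DES and 201 ± 100.3 in controls. The dim 1445180_at averaged 25.6 ± 23.6 on the DES arrays and 42.8 ± 15.8 on the control arrays, with the DES E18 array at 7.72.

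Whether an agent's difference from control moved with age was tested with a linear age term. Each slope rests on the E17 and P0 arrays of the agent and the controls. For BPA they include the P0 array with the gonad signal. This fit left 2 residual and 6.22 prior degrees of freedom, so it can show only large changes. For BPA the 4 slopes ran from -0.14 to 0.33 log2 units per age step (limma adjusted p = 0.771 to 0.953) and for DES from -0.25 to 0.05 (limma adjusted p = 0.791 to 0.983). Of all probe sets, 0.00741% passed for BPA and 0% for DES, and 0 of the 4 had an unadjusted p under 0.05 in either, against 8.56% and 7.22% of all.

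Other genes of the pathway that Srd5a3 serves, the making of dolichol and of the N-glycan precursor, were read from a list of 35 genes, of which 34 were tested. For P0 against E18, 11 of the 34 were higher and 23 lower, with a median of -0.07, where the median of 13399 tested genes was -0.01 and 48.2% were higher. None passed in limma, with 1 higher and 6 lower at an unadjusted p under 0.05, as 13.5% of all tested probe sets had. Rpn1, a subunit of the oligosaccharyltransferase that moves the finished glycan to protein, averaged 3710 ± 201 at P0 and 4360 ± 201 at E18 (SD, n = 3 each; log2 difference -0.23 ± 0.06 SE, limma adjusted p = 0.257), without overlap, as in 14.3% of all. Magt1, another protein of that complex, had -0.41 ± 0.11 (limma adjusted p = 0.257).

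The difference between Srd5a3, whose 4 estimates were above 0 in the same comparison, and this list was not tested. For P0 against E17, 16 of 34 were higher and 18 lower (median -0.03, all genes 0), and at an unadjusted p under 0.05 there were 3 higher and 5 lower, against 17.3% of all. Magt1 averaged 1171 ± 248 at P0 and 1560 ± 112 at E17 (SD, n = 3 each; log2 difference -0.43 ± 0.11, limma adjusted p = 0.127). Alg5, which makes the glucose donor of the precursor, averaged 471.7 ± 86.4 at P0 and 350 ± 20.1 at E17 (SD, n = 3 each; log2 difference 0.41 ± 0.13, limma adjusted p = 0.19). For E18 against E17, 22 were higher and 12 lower (median 0.04, all genes 0.01), where 54.3% of all genes were higher. The list was led by Gmppb (log2 difference 0.40 ± 0.20) and Dpm2 (0.19 ± 0.12), which serve the making of mannose donors (limma adjusted p = 1 for both).

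After BPA, 22 of the 34 were higher and 12 lower than in controls (median 0.04, all genes 0.01), where 52.3% of all genes were higher. In limma 0 passed, and 1 had an unadjusted p under 0.05, against 7.84% of all tested probe sets. That was Pmm1, a phosphomannomutase, which at E17, E18 and P0 read 503, 487 and 431 after BPA and 228, 245 and 547 in controls (log2 difference 0.59 ± 0.24, limma adjusted p = 0.597). Its difference lay at the prenatal ages only, and the groups overlapped. Magt1 had 0.23 ± 0.11 (limma adjusted p = 0.646). After DES the same split of 22 higher and 12 lower was seen (median 0.07, all genes 0.02), where 56.6% of all genes were higher. At an unadjusted limma p under 0.05 there were 3 higher and 0 lower, against 5.63% of all tested probe sets. Magt1 averaged 1558 ± 93.0 on the DES arrays and 1243 ± 231 on the control arrays (SD, n = 3 each). Its log2 difference was 0.34 ± 0.11 (limma adjusted p = 0.843). Ost4, a small subunit of the oligosaccharyltransferase, had 0.18 ± 0.07 (limma adjusted p = 0.843). With deposited intensities these splits turned with the scale, to 1 higher and 33 lower after BPA (median of all genes -0.24), to 31 higher and 3 lower after DES (0.11), and to 5 higher and 29 lower for E18 against E17 (-0.10).

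Enzymes that supply or inactivate androgens, the steroid side of the family's work, were represented by 9 tested genes of 23 listed. None passed in any comparison. Of all genes, 52.3% were higher after BPA and 56.6% after DES. After BPA 6 were higher and 3 lower (median 0.04), led by Hsd17b2, which oxidises testosterone to a weaker androgen: it read 118, 74.7 and 97.5 on the BPA arrays and 49.0, 61.6 and 68.4 in controls at the same ages (E17, E18, P0). Every BPA array was above every control array (log2 difference 0.64 ± 0.22, limma adjusted p = 0.496), a separation that 10.3% of all tested probe sets showed in either direction. Hsd17b10, a mitochondrial dehydrogenase, had 0.13 ± 0.08 (limma adjusted p = 0.732). After DES 7 were higher and 2 lower (median 0.07), with Cyb5a, cytochrome b5, at 2265 ± 39.4 on the DES arrays and 1949 ± 173 on the control arrays (SD, n = 3 each; log2 difference 0.22 ± 0.08, limma adjusted p = 0.843) and Akr1c14 at 0.43 ± 0.21 (limma adjusted p = 0.843). With deposited intensities the list had 2 higher and 7 lower after BPA (median -0.19, all genes -0.24). After DES it then had 9 higher and 0 lower (0.17, all genes 0.11).

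With age, Akr1c14, the 3-alpha-hydroxysteroid dehydrogenase that breaks down dihydrotestosterone, averaged 108 ± 30.0 at P0 and 57.7 ± 9.73 at E18 (SD, n = 3 each). Its log2 difference was 0.83 ± 0.21 (SE; limma adjusted p = 0.251), with all P0 arrays above all E18 arrays, as 14.3% of all tested probe sets were separated. Against E17 it was 0.69 ± 0.21 (limma adjusted p = 0.166). Cyb5a had -0.17 ± 0.08 for P0 against E18 (limma adjusted p = 0.366), and Hsd17b11, a dehydrogenase of the endoplasmic reticulum and lipid droplets, 0.27 ± 0.08 for P0 against E17 (limma adjusted p = 0.171). For E18 against E17, Cyp7b1, an oxysterol hydroxylase, had -0.23 ± 0.13 and Hsd17b11 0.12 ± 0.08 (limma adjusted p = 1 for both). In the list as a whole 4 were higher and 5 lower at P0 than at E18 (median -0.01), 3 and 6 at P0 than at E17 (-0.03), and 3 and 6 at E18 than at E17 (-0.01). Of the steroid-making enzymes, 2 of 9 listed genes were tested: Star, the mitochondrial cholesterol carrier, read 121, 92.0 and 101 on the BPA arrays, 99.0, 89.2 and 98.5 on the DES arrays and 121, 37.6 and 104 on the control arrays. Its log2 difference was 0.38 ± 0.27 after BPA and 0.26 ± 0.27 after DES, and with age -0.69 ± 0.27 for E18 against E17 (limma adjusted p = 1), 0.54 ± 0.27 for P0 against E18 and -0.16 ± 0.27 for P0 against E17. Fdx1, the electron donor of mitochondrial cytochromes, averaged 801 ± 114 on the BPA arrays and 679 ± 79.0 on the control arrays (log2 difference 0.23 ± 0.11, limma adjusted p = 0.641). Its highest value, 930.4, was on the BPA P0 array, the one with the gonad signal, and the part of that signal in the Fdx1 value was not tested. Its other differences were 0.02 after DES, 0.17 for P0 against E18, 0.21 for P0 against E17 and 0.04 for E18 against E17. The structural relative Tecr, a reductase of long-chain fatty acid synthesis, read 2689 to 3446 over the 9 arrays and had log2 differences of -0.02 after BPA and -0.09 after DES, and of -0.05 for P0 against E18, -0.003 for P0 against E17 and 0.05 for E18 against E17.

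Genes described as androgen-induced in prostate gave 13 tested of 18 listed, of which 0 passed in limma. Sgk1, a serum- and glucocorticoid-induced kinase, was lower after each agent: it read 839.8, 975 and 848 on the BPA arrays, 891, 959.9 and 860.5 on the DES arrays, and 1192, 1126 and 1086 in controls at the same ages (E17, E18, P0). Every exposed array lay below every control array, and groups without overlap were found in 10.3% of all tested probe sets for BPA and 10.9% for DES. The log2 differences were -0.35 ± 0.09 for BPA (limma adjusted p = 0.407) and -0.33 ± 0.09 for DES (limma adjusted p = 0.843), against the same 3 control arrays. The list had 7 genes higher and 6 lower after BPA (median 0.01) and 3 higher and 10 lower after DES (median -0.10). Among all genes, 52.3% were higher after BPA and 56.6% after DES. Zbtb16, a zinc finger repressor, had -0.58 ± 0.23 after BPA, and Wif1, a secreted Wnt inhibitor, -0.41 ± 0.17 after DES (limma adjusted p = 0.585 and 0.843).

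At P0 the immunophilin Fkbp5 averaged 739 ± 80.5, against 974 ± 83.2 at E18 (SD, n = 3 each; log2 difference -0.40 ± 0.11, limma adjusted p = 0.271). Steap4, a metalloreductase, averaged 74.5 ± 6.74 at P0 and 38.0 ± 8.43 at E17 (log2 difference 0.90 ± 0.24, limma adjusted p = 0.138). Against E17, Fkbp5 had -0.34 ± 0.11 (limma adjusted p = 0.193), and against E18, Steap4 had 0.61 ± 0.24 (limma adjusted p = 0.324). For E18 against E17, Wif1 had 0.42 ± 0.17 and Ndrg1, a stress-responsive gene, -0.34 ± 0.17 (limma adjusted p = 1 for both). The list had 5 higher and 8 lower for P0 against both E18 (median -0.06) and E17 (-0.07), and 7 higher and 6 lower for E18 against E17 (0.01).

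Chaperones and coregulators of steroid receptors were mostly lower at P0. For P0 against E18, 12 of 13 tested genes were lower and 1 higher, where 48.2% of all genes were higher. The median was -0.19 (all genes -0.01), or -0.38 with deposited intensities, where the median of all genes was -0.18. None passed in limma, with 4 lower at an unadjusted p under 0.05, against 13.5% of all tested probe sets. Fkbp4, the immunophilin that holds steroid receptors ready for hormone, averaged 638 ± 88.7 at P0 and 951 ± 117 at E18 (SD, n = 3 each; log2 difference -0.57 ± 0.12, limma adjusted p = 0.236), without overlap, as in 14.3% of all. Stip1, which links the heat shock chaperones, had -0.41 ± 0.13 (limma adjusted p = 0.277). For P0 against E17, 2 were higher and 11 lower (median -0.17, all genes 0), again led by Fkbp4 (-0.53 ± 0.12, limma adjusted p = 0.115) and Stip1 (-0.50 ± 0.13, limma adjusted p = 0.13). Between E18 and E17 there was no such lean, with 7 higher and 6 lower (median 0), Hsp90aa1, a heat shock chaperone, at -0.11 ± 0.08 and Stub1, a ubiquitin ligase that works with chaperones, at 0.15 ± 0.12 (limma adjusted p = 1 for both). After BPA the list had 5 higher and 8 lower (median -0.03), with the coregulators Nrip1 at -0.26 ± 0.10 (limma adjusted p = 0.584) and Ncoa3 at -0.28 ± 0.12 (limma adjusted p = 0.631). After DES it had 7 higher and 6 lower (median 0.03), with Stub1 at 0.22 ± 0.12 (limma adjusted p = 0.855) and Foxa1, a pioneer factor, at 0.17 ± 0.11 (limma adjusted p = 0.856). With deposited intensities these splits were 0 higher and 13 lower after BPA (median -0.26, all genes -0.24). After DES they were 11 higher and 2 lower (0.14, all genes 0.11).

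**Figure D3:**
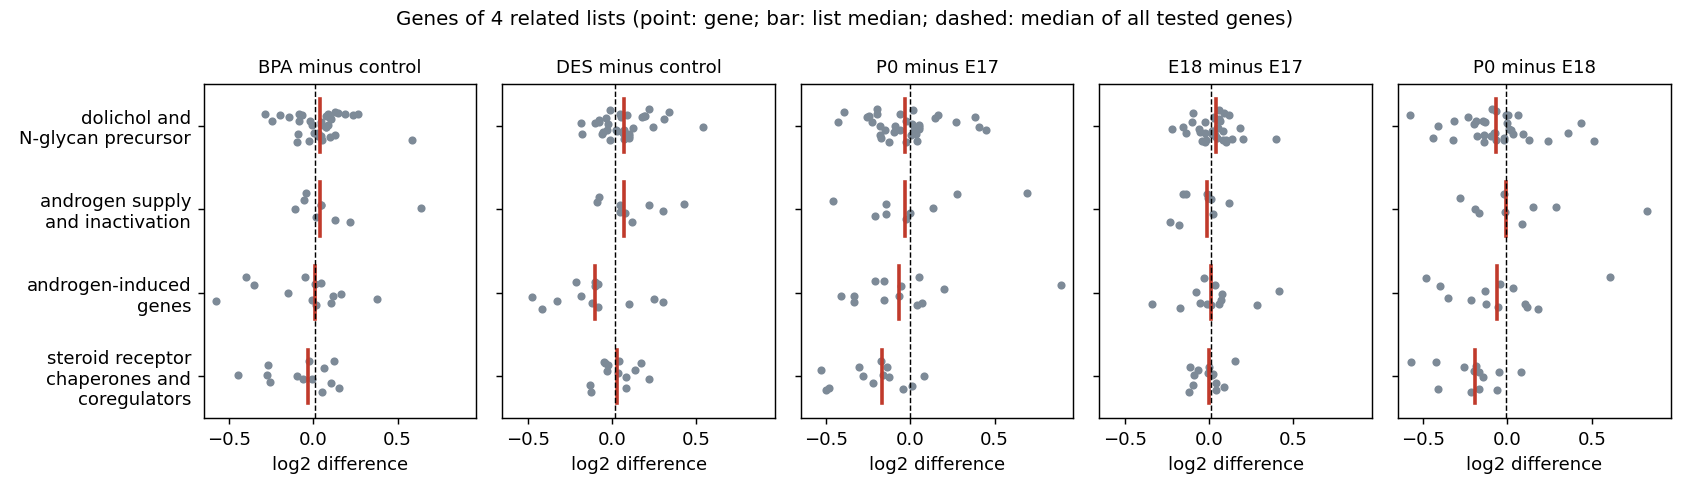
Log2 differences of the tested genes of 4 lists (rows; 1 point per gene, offset vertically for visibility) in each comparison (panels), with a red bar for the list median and a dashed line for the median of 13399 genes. In P0 minus E18 the chaperone and coregulator points lie mostly left of the line (median -0.19), while the other medians lie within 0.1 of it.

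The genes whose log2 signal was most like each Srd5a3 probe set over the 9 arrays were different for each, as a description on shared arrays. They were Ptpmt1 (r = 0.97), Cd276, Tmem43 and Heyl for 1423574_s_at, and Ngp (r = 0.96), Sap30bp, Cdo1 and Lrfn3 for 1456691_s_at. For 1439241_x_at they were Zfp521 (r = 0.95), Cybb, Tfap2a and Pcsk6, and for 1423573_at Akap12 (r = 0.95), Mob4, Lix1 and Acy3. With 9 arrays and 13398 genes to choose from, 104 genes had r above 0.9 with 1423574_s_at and 4 with 1423573_at.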

How the data were processed

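The authors deposited linear intensities, 1 per probe set and array. Per the submitters' processing notes they come from MAS5, which summarises the probes of an Affymetrix array. Its version and scaling target are not given in the sources used here. Per the labels' protocols, biotin was incorporated while RNA was amplified by in vitro transcription. The 45101 probe sets held 64 control probe sets and 0 missing values. The ratio of 3' to 5' signal was 1.19 to 1.31 for Actb and 0.752 to 0.859 for Gapdh.

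Intensities were quantile-normalised and transformed as log2(signal + 5.46), the 10th percentile of all values, so differences of dim genes are understated. The 26999 probe sets whose mean log2 signal reached the 40th percentile were fitted with limma 3.58.1 in R 4.3.3 (lmFit, eBayes with an intensity trend), with age and agent as additive factors, leaving 4 residual and 5.77 prior degrees of freedom. P-values were adjusted over all 26999 by Benjamini-Hochberg. Age serves as the block that pairs agents. For genes on lists, the brightest probe set with 1 symbol was read. The platform annotation gave 34958 probe sets 1 symbol, 932 several and 9211 none.

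Srd5a3 and the lists were chosen with earlier results of these data known. Named from each list were the tested genes past the threshold or else the 2 with the smallest p in each comparison, and for likeness the 4 with the highest r. Marker genes were picked for naming after their values were seen. Promoter sequence is from RefSeq (GRCm38.p6). Alternatives were other scalings, pseudocounts, filters and variance models, 1 probe set per gene, no block, and left-out arrays.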

Additional observations from a re-analysis of the deposited data

How the results depend on the processing

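For Srd5a3, 28 results (4 probe sets in 7 comparisons, the changes with age included) were recomputed to give 423 values: 30 turned sign and 0 passed the threshold. The changes with age were not recomputed with arrays left out or without a block. Of the 423, 178 equalled the main value, since a filter, a variance model, a block or an array outside the comparison leaves the estimate as it was; they do not bear on stability of sign. P0 minus E18 and, with 1 array left out, P0 minus E17 kept their sign in all 4 probe sets. With deposited intensities 9 turned: BPA minus control to -0.134 (1423573_at) and -0.213 (1456691_s_at), DES minus control to 0.038 and 0.043 (the same probe sets), P0 minus E17 to -0.065 and -0.15 (the same), E18 minus E17 to -0.073 (1423574_s_at), and the BPA change per age step to -0.085 (1423574_s_at) and -0.205 (1456691_s_at). That setting leaves each array on its own scale. The median of all probe sets was then -0.24 for BPA minus control, 0.08 for DES minus control, -0.29 for P0 minus E17 and -0.12 for E18 minus E17. The dim BPA P0 array does not enter the estimates of DES minus control or E18 minus E17. With both later BPA arrays (E18 and P0) left out, BPA minus control turned to -0.176 (1456691_s_at) and E18 minus E17 to -0.044 (1423574_s_at).

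Leaving out 1 array at a time turned 19 values. BPA minus control ran from -0.01 to 0.187 (1423573_at), -0.155 to 0.062 (1423574_s_at) and -0.065 to 0.167 (1456691_s_at). DES minus control ran from -0.205 to 0.129 (1423573_at), -0.235 to 0.391 (1439241_x_at) and -0.15 to 0.126 (1456691_s_at). E18 minus E17 ran from -0.129 to 0.167 (1423573_at), -0.07 to 0.133 (1423574_s_at), -0.506 to 0.106 (1439241_x_at) and -0.158 to 0.074 (1456691_s_at).

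Counts over all probe sets moved more. With deposited intensities 36 were called for BPA minus control (0 in the main setting), 392 for P0 minus E17 (25), 3 for E18 minus E17 (0), 7 for P0 minus E18 (0), 453 for the BPA change with age (2) and 80 for that of DES (0). For P0 minus E17 the count was 62 with a pseudocount of 32, 7 without a filter, 56 with a filter at the 60th percentile, 83 with 1 probe set per gene, 0 without an intensity trend and 0 with both later BPA arrays left out. For BPA minus control it was 2 with the stricter filter, 2 with 1 probe set per gene and 4 without those 2 arrays, and for the BPA change with age 5 with the pseudocount of 32, 8 with 1 probe set per gene and 0 without the trend. With 1 array left out, counts ran from 0 to 7 for BPA minus control, 0 to 1606 for P0 minus E17 (highest without DES P0), 0 to 1 for E18 minus E17 and 0 to 663 for P0 minus E18 (highest without DES P0). The cause was not tested. No paired analysis by replicate number was possible because the labels carry none. Dropping the age or agent block cannot move an estimate in this balanced design.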
